A study of Mus musculus with 12 samples.

Results

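Ribosome footprints of mouse embryonic fibroblasts (MEF) treated with halofuginone (HF) were compared with footprints of untreated cells across genes typed protein-coding in RefSeq. The comparison rests on the 6 footprint libraries of the series, 3 from HF cells and 3 from control cells, out of 12 libraries in all. The other 6 hold total RNA of the same conditions and were used only where a footprint change is set beside the RNA change of the same gene. HF cells received 100 nM halofuginone for 6 h, and control cells received the same medium without the compound for 6 h. In both arms the medium during these 6 h was high-glucose DMEM with dialyzed serum, so the controls were also exposed to serum depleted of small molecules. The labels name neither a mouse strain nor separate cultures behind the replicate numbers. The p-values therefore rest on the spread among the libraries of a group, and that spread may be technical only.

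Halofuginone occupies the prolyl-tRNA synthetase site of the bifunctional enzyme Eprs, and uncharged tRNA is known to activate the kinase GCN2. GCN2 phosphorylates the initiation factor eIF2, which lowers the translation of most mRNAs and lets the ribosome reach the coding region of a few others, such as that of the transcription factor Atf4. A footprint is the stretch of mRNA that a ribosome shields from nuclease, so the footprint count of a gene follows both how much mRNA there is and how many ribosomes sit on it, including ribosomes that wait at a codon.

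The footprint libraries held 562794 to 2527791 counts, of which 95.29% to 96.75% fell on protein-coding genes. Rank correlations over 5477 genes were 0.949 to 0.968 among control libraries, 0.921 to 0.943 among HF libraries and 0.722 to 0.754 between the groups. Fibroblast markers were present in every library, at a summed level of 13800 to 14700 CPM (counts scaled to a common library total) in control and 8540 to 8710 CPM in HF libraries. Among these 13 markers, Lum and Fap had no count in any of the 6 libraries, Col3a1 and Dcn were too low to test, and of the 9 tested genes 5 were called lower and 1 higher, the latter Thy1, a call lost under most alternatives. Marker lists of blood, endothelium, nerve and muscle summed to at most 12.4 CPM, and Pecam1, Ptprc, Sox10 and Myog were at 0. The epithelial list lay at 233 to 289 CPM in control and 217 to 377 CPM in HF libraries, nearly all of it Krt19. The part of the lower fibroblast markers in the results below was not tested, and in a bulk sample fewer cells of a type and less RNA per cell cannot be told apart.

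Footprints moved widely across the genome. Of 21409 protein-coding genes, 8373 passed the filter on low counts and were tested, and 3622 of them (43.3%) changed at an adjusted p of 0.05 by the quasi-likelihood test of edgeR. HF cells had more footprints on 1875 genes (22.4%) and fewer on 1747 (20.9%), while 4751 were not called. Calls of at least 2-fold numbered 988 higher and 866 lower, those of at least 4-fold 201 and 136, and those of at least 8-fold 55 and 20. The distribution was close to even around its middle, with a median log2 change of −0.02, an interquartile range of −0.56 to 0.55, and 5% and 95% points of −1.46 and 1.58. In 4300 genes (51.4%) every library of one group lay above every library of the other, and 3383 of these genes were called. The labels describe no spike-in, so each change is measured against the average gene, and a loss of footprints shared by all genes would not be seen. With upper-quartile scaling the median moved to −0.10, and the calls became 1656 higher and 2043 lower.

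Precision followed depth. Tested genes were split into 5 equal bins by mean level. In the lowest bin the median standard error (SE) of the log2 change was 0.51, and 12.4% were called higher and 11.9% lower. In the highest bin the median SE was 0.14, and 33.3% and 29.1% were called. The median size of a called change over all levels was 1.02 on the log2 scale, and 319 called genes changed by less than 0.5.

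**Figure D1:**
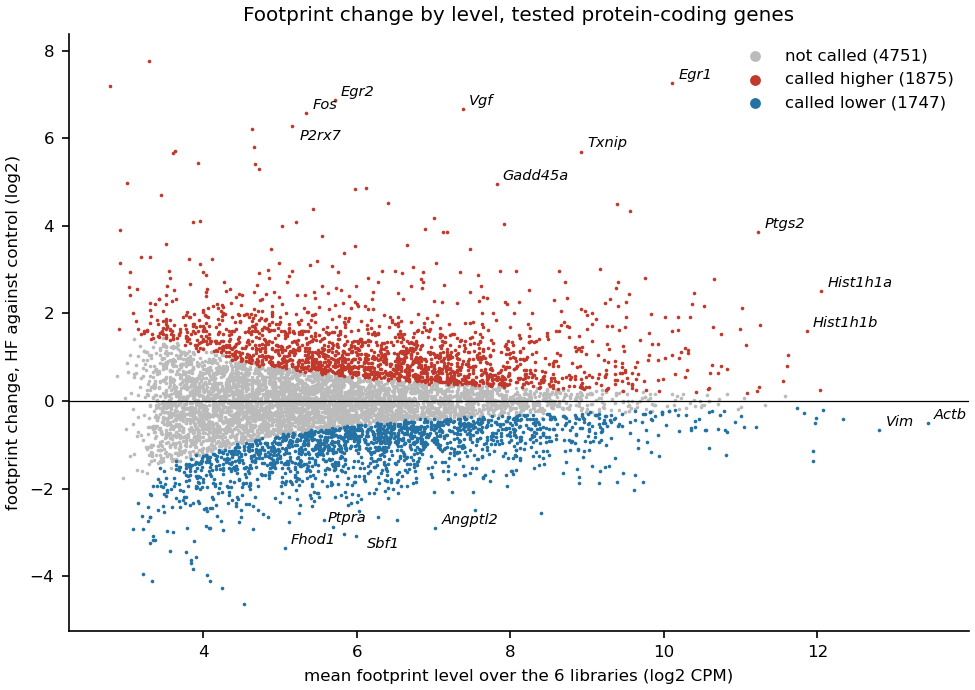
Log2 change of footprints, HF against control (vertical axis), against the mean footprint level over the 6 libraries in log2 CPM (horizontal axis), with 1 point for each of 8373 tested protein-coding genes. Red points are the 1875 genes called higher, blue points the 1747 called lower and grey points the 4751 not called, and the smallest change that was called shrinks as the level rises.

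The 12 largest increases were taken among called genes with an average log2 CPM of at least 5 and no overlap between groups. CPM values are given in the order of libraries 1, 2 and 3 of each group. Egr1, a zinc finger transcription factor of the early response to stimuli, had 12.6, 9.81 and 28.1 CPM in the control and 2056, 2002 and 2590 CPM in the HF libraries. The groups were far apart, with a log2 change of 7.27 (SE 0.17, edgeR adjusted p = 8.6e-26). Its relative Egr2 went from 0, 0 and 5.62 to 130, 95.4 and 106 CPM (6.88, SE 0.49), with all control counts in library 3. Fos, a subunit of the AP-1 transcription factor, had 0.811, 1.23 and 0 CPM in control and 98.5, 66.9 and 96.7 CPM in HF libraries (6.58, SE 0.45), and Arc, an immediate early gene best known from neurons, had 2.43, 6.13 and 5.62 against 91.2, 87.0 and 92.9 CPM (4.38, SE 0.34). In each of these 4 genes every HF library lay above every control library, as the rule of choice required.

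Others of the 12 are known from growth arrest and stress. Gadd45a, which responds to DNA damage and other stress, had 9.33, 16.6 and 25.3 CPM in control and 423, 520.2 and 432 CPM in HF libraries (4.96, SE 0.21). Its relative Gadd45g started higher, at 64.1, 46.6 and 66.1 CPM, and reached 1363, 1199 and 1357 CPM (4.49, SE 0.13, adjusted p = 9.4e-24). Both genes kept a wide gap between the groups. Ddit3, which encodes the transcription factor CHOP, had 5.68, 4.90 and 2.81 against 147, 134 and 161 CPM (4.87, SE 0.28), and Atf3, a stress-induced member of the ATF family, had 5.68, 6.13 and 15.5 against 199, 166 and 146 CPM (4.52, SE 0.27). Txnip, an inhibitor of thioredoxin that also restrains glucose uptake, went from 15.0, 19.6 and 26.7 to 1112, 957 and 829 CPM (5.70, SE 0.17, adjusted p = 1.3e-23). Every HF library of these 3 genes lay above every control library, again by the rule of choice.

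A phosphatase, a secreted precursor and an ion channel completed the 12. Dusp2, a nuclear phosphatase of MAP kinases, had 4.46, 4.29 and 5.62 CPM in control and 122, 136 and 154 CPM in HF libraries (4.85, SE 0.29). Vgf, a secreted precursor of neuropeptides, had 3.24, 1.23 and 8.43 against 325, 405 and 320.4 CPM (6.66, SE 0.27). P2rx7, an ATP-gated ion channel, had 0, 0 and 5.62 against 93.4, 58.6 and 66.4 CPM (6.29, SE 0.56). As with Egr2, its control counts lay in library 3 alone.

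Promoters of 4 strongly changed genes are shown for the motifs they hold, which are known from stress and cyclic AMP responses. The 4 motifs were searched on both strands in the 250 bases before each gene start, and sequences are from the RefSeq promoter table of GRCm38.p6, each printed with 40 bases on either side of the motif in capitals. The genes to print were chosen after their values were seen. Atf3 and Gadd45g hold TGATGNAA, which resembles the core of the composite C/EBP-ATF element, on the strand opposite to the gene, where it reads TTGCATCA in the gene's direction. Fos and Btg2 hold TGACGNCA, which resembles the cyclic AMP response element.
Atf3, chr1:191183396-191183483, minus strand: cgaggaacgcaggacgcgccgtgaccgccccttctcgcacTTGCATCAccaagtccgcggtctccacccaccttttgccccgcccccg
Gadd45g, chr13:51846534-51846621, plus strand: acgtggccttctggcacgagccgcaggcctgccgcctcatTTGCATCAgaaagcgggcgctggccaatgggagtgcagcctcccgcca
Fos, chr12:85473721-85473808, plus strand: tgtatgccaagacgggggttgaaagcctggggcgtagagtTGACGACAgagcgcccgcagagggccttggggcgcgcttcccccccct
Btg2, chr1:134079274-134079361, minus strand: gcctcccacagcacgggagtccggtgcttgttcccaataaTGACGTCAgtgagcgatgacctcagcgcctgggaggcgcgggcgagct

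The capitals begin 110 bases before the gene start in Atf3, 101 in Gadd45g, 129 in Fos and 166 in Btg2. TGATGNAA was in 34 of 962 windows of genes called higher by at least 2-fold (3.53%) and in 19 of 946 windows of genes called lower by as much (2.01%), beside 1.88% of the windows of all tested genes and 3.45% of all windows in the table. TGACGNCA was in 7.80% of the windows of the higher genes, in 3.07% of those of the lower genes, in 5% of the tested and in 2.75% of all. Among the 49 windows of genes called higher by at least 8-fold, 6 held TGATGNAA, 8 held TGACGNCA and 6 held the E-box CACGTG. This E-box was in 10.8% of the windows of the higher genes, 5.92% of the lower, 9.04% of the tested and 6.02% of all. Windows were found for 6713 of the 8373 tested genes. A match describes the letters only and shows no binding.

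The 12 largest decreases were taken by the same rule. Fhod1, a formin that builds actin filaments, had 47.0, 46.6 and 68.9 CPM in control and 6.19, 3.35 and 3.79 CPM in HF libraries (−3.36, SE 0.40, adjusted p = 2.5e-08). Sbf1, a catalytically inactive myotubularin-related protein, had 102, 103 and 99.8 against 10.1, 13.4 and 15.2 CPM (−3.08, SE 0.27). Ptpra, a receptor tyrosine phosphatase that activates Src kinases, had 80.3, 94.4 and 98.4 against 6.75, 20.1 and 11.4 CPM (−3.04, SE 0.31). In each of these 3 genes the lowest control library stood well above the highest HF library. The receptor tyrosine kinase Pdgfrb went from 71.4, 80.9 and 97.0 to 12.9, 16.7 and 0 CPM (−2.87, SE 0.35), and HF library 3 had no count. Itgb5, an integrin subunit of vitronectin receptors, had 54.3, 52.7 and 46.4 against 5.63, 11.7 and 7.58 CPM (−2.77, SE 0.36). The secreted glycoprotein Angptl2 had 225, 211 and 209 against 37.1, 26.8 and 11.4 CPM (−2.90, SE 0.22), with the HF libraries themselves spread about their mean of 25.1 ± 13.0 CPM (SD, n = 3).

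Further genes among the 12 lowest changes encode a peptidase, a receptor, a ligase and regulators of small GTPases. Dnpep, an aspartyl aminopeptidase, had 142, 155 and 141 CPM in control and 18.0, 28.4 and 24.7 CPM in HF libraries (−2.72, SE 0.23). Pear1, a receptor with EGF-like repeats, changed by −2.71 (SE 0.31), Traf7, a ubiquitin ligase, by −2.65 (SE 0.24), Sipa1l3, a protein with a Rap GTPase-activating domain, by −2.52 (SE 0.25), and Pcyox1l, a relative of prenylcysteine oxidase, by −2.55 (SE 0.35). None of the 12 overlapped between groups, which was a condition of their choice.

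Hmgcs1, the enzyme that makes HMG-CoA for sterol synthesis, was the gene of highest level among these 12 decreases by CPM, which are not corrected for length. It had 581, 557 and 552 CPM in control and 116, 109 and 41.7 CPM in HF libraries (−2.56, SE 0.17), and HF library 3 lay below the other two. Its promoter holds TCACNCCAC, which resembles a sterol regulatory element, beginning 137 bases before the gene start, in capitals here.
Hmgcs1, chr13:119690174-119690262, plus strand: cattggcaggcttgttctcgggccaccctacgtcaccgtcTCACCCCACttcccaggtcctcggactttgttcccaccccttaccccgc

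That motif was in 1.37% of the windows of genes called lower by at least 2-fold, in 1.77% of those of the higher genes, in 1.03% of those of all tested genes and in 1.05% of all windows.

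**Figure D2:**
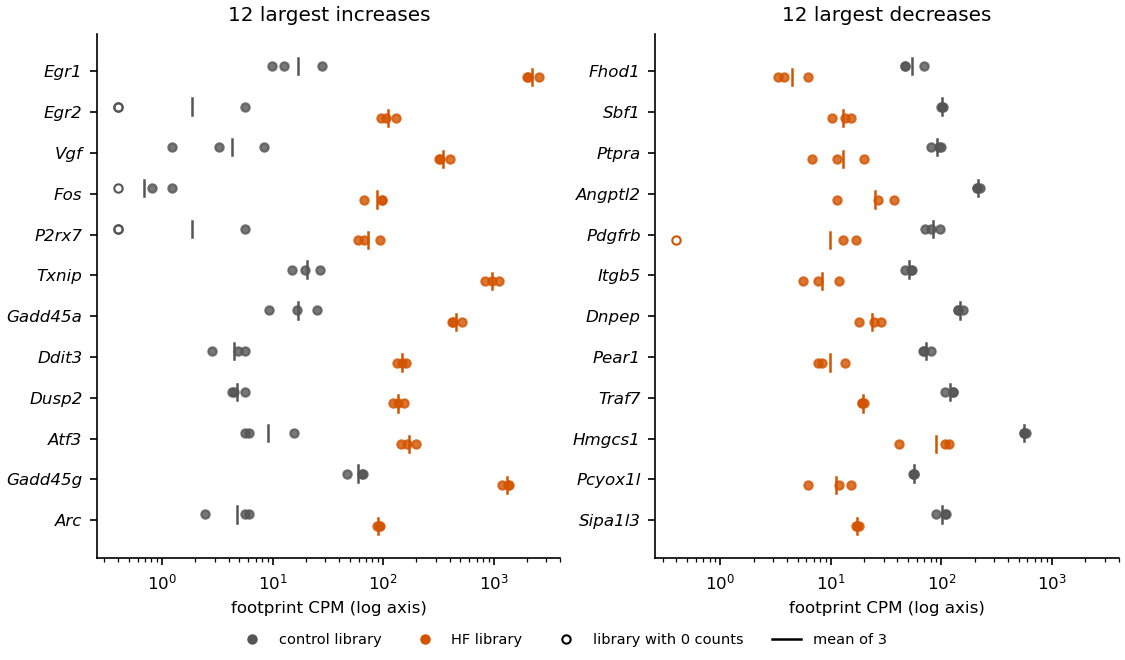
Footprint CPM on a log axis in each of the 3 control (grey) and 3 HF (orange) libraries for the 12 largest increases (left) and the 12 largest decreases (right), with a vertical line at each group mean. Open circles stand for libraries with 0 counts, drawn at the left edge. In all 24 genes the groups are separate, which was a condition of their choice.

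The genes called higher held 21.5% ± 0.0721 (SD, n = 3) of protein-coding footprints in control and 41.5% ± 0.639 in HF libraries, and those called lower 38.8% ± 0.227 and 21.7% ± 0.534. These shares describe the genes that the test itself chose. Of the CPM gained by genes called higher, 13.5% lay on 10 genes and 45.3% on 100, and of the CPM lost by genes called lower 13.6% and 39.4%. Among the genes with the largest gains in CPM were linker histones, which bind DNA between nucleosomes. Hist1h1a had 1213, 1294 and 1277 CPM in control and 7515, 7190 and 7020 CPM in HF libraries (2.52, SE 0.07), and Hist1h1b, Hist1h1c and Hist1h1d changed by 1.59, 2.12 and 1.73. Together the Hist1h1 genes took 0.604% ± 0.0360 of control and 2.16% ± 0.0918 of HF footprints. Ptgs2, the inducible cyclooxygenase of prostaglandin synthesis, went from 292, 264 and 403 to 5234, 3894 and 4362 CPM (3.85, SE 0.11, adjusted p = 2.2e-23). H3f3b, a gene of the replication-independent histone H3.3, had 398, 419 and 410.4 against 2593, 2872 and 3041 CPM (2.79, SE 0.09). Ahnak, a giant scaffold protein beneath the membrane, changed by 1.05 (SE 0.08). Histone genes have near-identical copies, so the split of reads among them is uncertain.

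The 8 genes that lost the most CPM are of high level by their choice. Tubb5, a beta-tubulin, had 5602, 5753 and 5755 CPM in control and 2126, 2344 and 2083 CPM in HF libraries (−1.38, SE 0.07). Col1a2, a chain of type I collagen, had 2385, 2693 and 2455 against 1085, 1025 and 1098 CPM (−1.23, SE 0.08), and Fasn, the fatty acid synthase, 2097, 2089 and 2062 against 931, 1127 and 912 CPM (−1.08, SE 0.08). The groups were separate in all 3 genes. The 10 genes with the highest control level were chosen on 1 side of the comparison, and such a choice leans toward lower calls. Of them, 9 were called lower, beside 29.1% of the genes in the highest of the 5 bins by mean level. Besides Tubb5 these were Actb (−0.50), the intermediate filament gene Vim (−0.66), the calcium-binding S100a6 (−1.15), the chaperone Hsp90ab1 (−0.42), the elongation factors Eef2 (−0.50) and Eef1a1 (−0.20), the galectin Lgals1 (−0.38) and the nucleolar protein Ncl (−0.28). Atp5b, a subunit of mitochondrial ATP synthase, was called higher at 0.25, and that call was lost with upper-quartile factors and without control library 1 or HF library 3.

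Gene groups were then read against the background of all tested genes, of which 22.4% were called higher and 20.9% lower. The 67 groups were 36 lists of known function or cell type and 31 families defined by their symbols, and some share members. Genes at or near 0 in the control libraries pass the filter only through the HF libraries, so the counts describe the tested members and not the whole list. A gene named as the single called member of a list in 1 direction was chosen after its value was seen.

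**Figure D3:**
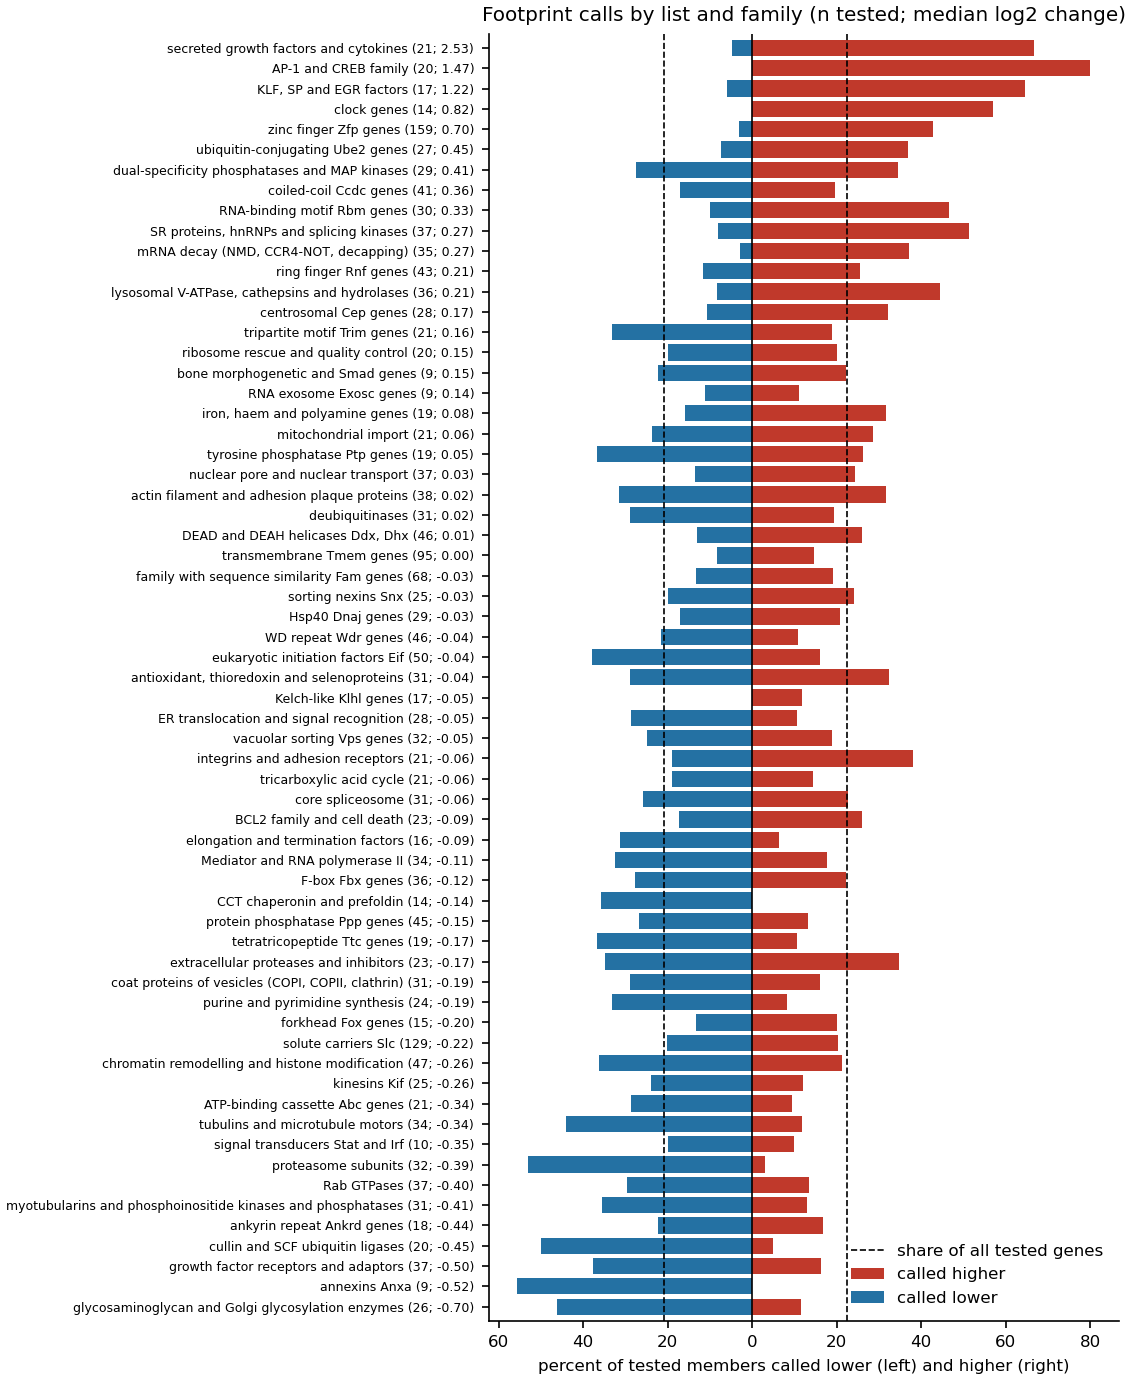
Percent of tested members called lower (blue, to the left) and higher (red, to the right) in HF footprints for lists and families with at least 9 tested genes, ordered by median log2 change, with the number tested and the median in brackets. Dashed lines mark the share of all tested genes called lower and higher, and the upper bars belong to secreted growth factors, AP-1 and CREB factors and KLF, SP and EGR factors.

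Most tested transcription factors of the early response rose, and members near 0 in control, such as Fosb, were tested only through their HF counts. In the AP-1 and CREB family, 16 of 20 tested genes (24 listed) were called higher and 0 lower, with a median of 1.47. Fosb, a further AP-1 subunit, had 2.43, 4.29 and 0 CPM in control and 31.0, 25.1 and 19.0 CPM in HF libraries (3.24, SE 0.57). Junb, the partner of Fos proteins, had 49.5, 58.2 and 63.2 against 293, 301 and 351 CPM (2.49, SE 0.16), and Maff, a small Maf factor, 25.1, 25.1 and 18.3 against 183, 166 and 195 CPM (2.92, SE 0.20). Among KLF, SP and EGR factors, 11 of 17 tested were called higher and 1 lower (median 1.22). Klf5 went from 62.5, 51.5 and 46.4 to 445, 445 and 396 CPM and Klf10, a target of TGF-beta signalling, from 32.0, 41.1 and 49.2 to 314, 286 and 292 CPM, while Klf13, the lower member, changed by −1.36 (SE 0.28), and 2 members were lower with upper-quartile factors or without HF library 3. Clock genes had 8 of 14 tested called higher and 0 lower (21 listed, median 0.82). They included Nr1d1, a nuclear receptor that represses Arntl (2.10), Bhlhe41 (1.87), the kinase Csnk1e (1.71) and Arntl itself (1.34).

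The largest family, zinc finger genes named Zfp, was also skewed. Of 393 such genes 159 were tested, and 68 were called higher and 5 lower (median 0.70). Zfp655 had 34.1, 28.2 and 33.7 CPM in control and 212, 226 and 199 CPM in HF libraries (2.73, SE 0.18), and Zfp948 19.1, 15.3 and 11.2 against 88.9, 82.0 and 96.7 CPM. The number of lower genes was 3 with DESeq2 and 1 without control library 2 or HF library 1. With a minimum count of 50, which left 37 of these genes to test, 24 were called higher.

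Most tested genes of secreted signals rose, but members near 0 in control, such as Lif, Gdnf and Il11, were tested only through HF counts. The counts and the median of this list therefore lean toward higher genes. Of 40 listed growth factors and cytokines 21 were tested, 14 were called higher and only Sdf2, an endoplasmic reticulum protein listed here by its name, was lower, with a median of 2.53 and a share of footprints that went from 0.112% ± 0.00110 to 0.367% ± 0.0147 (SD, n = 3). Lif, a cytokine of the interleukin 6 family, had 7.30, 3.68 and 0 CPM in control and 51.2, 97.0 and 110 CPM in HF libraries (4.08, SE 0.41), and Gdnf, a neurotrophic factor, 1.62, 2.45 and 0 against 32.1, 33.5 and 20.9 CPM (4.08, SE 0.59). Il11, a further cytokine of that family, had too few control counts for a firm fold, with a ratio of 90.0 and a 95% counting interval of 30.3 to 441. All HF libraries lay above all control libraries in these 3 genes, and without HF library 3 the list had 2 lower members.

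Receptors and lipid kinases had more genes lower than higher. Among growth factor receptors and adaptors, 14 of 37 tested were called lower and 6 higher (median −0.50), and 9 were lower without control library 2. Igf1r, the receptor of insulin-like growth factor, had 146, 181 and 153 CPM in control and 36.6, 53.5 and 51.2 CPM in HF libraries (−1.85, SE 0.20), the Wnt receptor Fzd2 changed by −1.86 (SE 0.27) and the Ras activator Sos1 by −1.83 (SE 0.37). In the list of phosphoinositide kinases, phosphatases and myotubularins, 11 of 31 were lower and 4 higher (median −0.41), and 6 were lower with a minimum count of 50. There the regulatory subunit Pik3r2 had 20.7, 22.7 and 21.1 against 1.69, 0 and 3.79 CPM (−3.56, SE 0.65), and the catalytic subunit Pik3ca 46.6, 55.2 and 23.9 against 11.8, 13.4 and 11.4 CPM (−1.84, SE 0.36). Inppl1, an inositol phosphatase, changed by −1.64 (SE 0.24). MAP kinases and their dual-specificity phosphatases moved both ways, with 10 of 29 higher and 8 lower. Spry2, an inhibitor of receptor signalling, had 25.6, 11.0 and 19.7 against 165, 154 and 129 CPM (2.97, SE 0.24), whereas the related inhibitor Spred1 had 26.8, 25.7 and 21.1 against 7.88, 0 and 7.58 CPM (−2.07, SE 0.51).

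The lists of protein degradation differed in their direction, a difference that was not tested. Ubiquitin-conjugating Ube2 genes had 10 of 27 tested called higher and 2 lower (median 0.45). Ube2w changed by 1.84 (SE 0.36) and Ube2h by 1.68 (SE 0.43), and Ube2s, a partner of the anaphase-promoting complex, by 1.55, a call that was lost without HF library 1. Ube2l3, among the lower members, overlapped between groups at −1.43 and lost its call with DESeq2 and without HF library 2 or 3. The family had 0 lower members with DESeq2 and without control library 2 or HF library 2, and 1 without control library 1, HF library 1 or HF library 3. Proteasome subunits had 17 of 32 called lower and only Psmd8 higher (0.89), with a median of −0.39 and a share that went from 1.22% ± 0.0106 to 0.878% ± 0.0466. Without HF library 3 the higher count was 3. Psma7, a subunit of the catalytic core, had 534, 464 and 513 CPM in control and 212, 274 and 154 CPM in HF libraries (−1.23, SE 0.14), and Psmd6, a subunit of the regulatory lid, 485, 475 and 439.9 against 213, 192 and 226 CPM (−1.15, SE 0.12). Psma1 and Psma4 changed by −1.10 and −1.05. Cullin and SCF ligase genes had 10 of 20 lower and 1 higher, with a median of −0.45. Cand1, which exchanges the substrate receptors of these ligases, had 681, 702 and 694 against 312, 308 and 233 CPM (−1.27, SE 0.11).

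Chaperone and translation factor lists are given next. The CCT chaperonin, which folds actin and tubulin, and its partner prefoldin had 5 of 14 tested called lower and 0 higher (median −0.14). Pfdn1 had 154, 165 and 139 CPM in control and 47.3, 65.2 and 41.7 CPM in HF libraries (−1.60, SE 0.19), Cct2 changed by −0.62 and Cct8 by −0.42, and Pfdn5, at −0.85, lost its call without control library 2. Chaperones of the Hsp40 family, named Dnaj, had 6 of 29 higher and 5 lower (median −0.03, and 0.05 without control library 1). Initiation factors of the Eif symbol had 19 of 50 lower and 8 higher, with a median of only −0.04. The eIF3 subunits Eif3l (896, 906 and 912 against 318, 356 and 299.5 CPM; −1.48, SE 0.10) and Eif3f (−1.25) were lower, as was Eif2d (−1.40), and the eIF2 subunit gene Eif2s2 was higher (182, 147 and 163 against 376, 363 and 292 CPM; 1.08, SE 0.14). Among elongation and termination factors 5 of 16 were lower and 1 higher. Eef2k, the kinase that inhibits Eef2, had 28.8, 20.8 and 19.7 against 1.13, 0 and 3.79 CPM (−3.98, SE 0.67). Gspt1, the release factor eRF3a, had 714, 639.8 and 676 against 328, 319.5 and 267 CPM (−1.14, SE 0.11). The higher member, Dhps, at 0.63, overlapped between groups and lost its call with upper-quartile factors, with DESeq2 and without control library 1 or 2 or HF library 1 or 2.

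Among lists of genes that act on RNA, some had more genes higher than lower. SR proteins, hnRNPs and splicing kinases had 19 of 37 tested called higher and 3 lower (median 0.27), although 11 were higher without control library 2 and 12 without control library 3, and 5 were lower without HF library 1. Clk4, a kinase of SR proteins, had 26.0, 27.6 and 32.3 CPM in control and 131, 107 and 119 CPM in HF libraries (2.11, SE 0.22). The splicing regulators Tra2a and Srsf2 had 211, 194 and 223 against 831, 599 and 548 CPM and 287, 312 and 309 against 801, 765 and 779 CPM (1.68 and 1.37), and Srsf10 changed by 1.52. RNA-binding motif genes named Rbm had 14 of 30 higher and 3 lower (median 0.33), with 9 higher without HF library 1 and 1 lower without control library 2. In the list of mRNA decay factors 13 of 35 were higher and 1 lower (median 0.27), the latter lost without control library 1 or HF library 1. Btg2, an adaptor of the CCR4-NOT deadenylase, had 2.03, 0 and 2.81 against 39.95, 63.6 and 89.1 CPM (5.31, SE 0.53), and the related Btg1 37.7, 44.1 and 46.4 against 151, 131 and 114 CPM (1.68, SE 0.20). The destabilising proteins Zfp36l1 and Zfp36, which bind AU-rich elements, changed by 3.08 (SE 0.28) and 2.02 (SE 0.43). The core spliceosome had 7 of 31 higher and 8 lower (median −0.06), and 4 lower without HF library 2. RNA exosome genes had 1 of 9 higher (0 without control library 2 or HF library 1) and 1 lower (0 without control library 1 or HF library 1).

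In the lists of chromatin and transcription genes more members were lower than higher. Among chromatin remodelling and histone modification genes, 17 of 47 tested were called lower and 10 higher (median −0.26). Ehmt2, a methyltransferase of histone H3, had 135, 129.9 and 115 CPM in control and 24.2, 26.8 and 36.0 CPM in HF libraries (−2.21, SE 0.22), and Kat2a, an acetyltransferase, 128, 139 and 127 against 42.8, 50.2 and 28.4 CPM (−1.67, SE 0.21). The demethylase Kdm6b was higher, with 7.30, 8.58 and 7.03 against 32.6, 50.2 and 45.5 CPM (2.42, SE 0.39), and the deacetylase Hdac7 lower (−1.82). In the Mediator and RNA polymerase II list 11 of 34 were lower and 6 higher. Without control library 2 these counts were 7 and 2, and the higher count was 3 without control library 1 or HF library 1. Polr2a, the largest subunit of RNA polymerase II, had 397, 396 and 395 against 131, 144 and 121 CPM (−1.58, SE 0.13), and the elongation factor Supt5 changed by −1.53 (SE 0.15).

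Cytoskeletal genes moved in both directions. Tubulins and microtubule motors had 15 of 34 tested called lower and 4 higher (median −0.34), and their share went from 1.16% ± 0.00721 to 0.694% ± 0.0172. Tuba1a had 30.0, 34.3 and 30.9 CPM in control and 3.94, 0 and 11.4 CPM in HF libraries (−2.77, SE 0.52) and Tuba1b 94.1, 73.5 and 71.7 against 19.1, 11.7 and 22.8 CPM (−2.15, SE 0.27), and these alpha-tubulin genes are near-identical in sequence. Against them, Dync1h1, the heavy chain of cytoplasmic dynein, had 92.1, 116 and 80.1 against 507, 477 and 413 CPM (2.26, SE 0.14). Actin filament and adhesion plaque genes had 12 of 38 higher and 12 lower, with a median of 0.02 that was −0.06 with upper-quartile factors, −0.04 without control library 3 and −0.02 without HF library 2. The actin crosslinker Flnc (476, 553 and 436 against 1757, 1852 and 2000 CPM; 1.93, SE 0.09) rose with the actin-binding Tagln2 (1.98), and tropomyosin Tpm1 fell (1395, 1240 and 1300 against 334, 439.9 and 324 CPM; −1.85, SE 0.11). Annexins, which bind membranes when calcium rises, had 5 of 9 lower and 0 higher (median −0.52), among them Anxa6 (−0.87) and Anxa1 (1244, 1250 and 1237 against 961, 826 and 743 CPM; −0.55, SE 0.09).

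In the secretory route and at the cell surface the lists differed in direction, a difference that was not tested. Glycosaminoglycan and Golgi glycosylation enzymes had 12 of 26 tested called lower and 3 higher (35 listed, median −0.70). Chpf2, which polymerises chondroitin, had 19.9, 30.0 and 14.1 CPM in control and 2.81, 6.69 and 3.79 CPM in HF libraries (−2.44, SE 0.56), the sulfotransferase Chst12 changed by −2.34 (SE 0.54) and the branching enzyme Mgat5 by −2.23 (SE 0.55). The related sulfotransferase Chst11 was higher (4.06, 4.90 and 2.81 against 29.3, 23.4 and 41.7 CPM; 2.89, SE 0.49). These genes have low counts, and with a minimum count of 50 the calls were 7 lower and 0 higher. Among genes of endoplasmic reticulum translocation and signal recognition 8 of 28 were lower, including the oligosaccharyltransferase subunits Stt3b (−1.50), Rpn1 (586, 604 and 613 against 308, 298 and 315 CPM; −0.97, SE 0.11) and Rpn2 (−0.93), and 3 were higher. That last count was 1 without control library 1 or 3 or HF library 1, and 5 without HF library 3. Extracellular proteases and their inhibitors had 8 of 23 higher and 8 lower. Timp3, an inhibitor of matrix metalloproteinases, had 90.4, 91.3 and 91.4 against 723, 738 and 686 CPM (2.98, SE 0.12). The processing protease Furin (36.9, 36.8 and 30.9 against 6.19, 6.69 and 7.58 CPM; −2.40, SE 0.41) and the collagen chaperone Serpinh1 (877, 844 and 839 against 249, 304 and 305 CPM; −1.60, SE 0.11) fell. Integrins and adhesion receptors had 8 of 21 higher and 4 lower, and 7 lower with upper-quartile factors or halved counts.

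Of the lysosomal genes, 16 of 36 tested were called higher and 3 lower (median 0.21). Atp6v1b2, a subunit of the proton pump, had 248, 221 and 278 CPM in control and 894, 808 and 794 CPM in HF libraries (1.76, SE 0.11), Atp6v0b of the same pump changed by 1.46, and the hydrolase Neu1 by 1.17. Antioxidant, thioredoxin and selenoprotein genes had 10 of 31 higher and 9 lower, with a median of −0.04. The median was 0.07 without control library 1, 0.05 without control library 2, 0.14 without HF library 1 and 0.01 without HF library 3, and 5 members were higher with a minimum count of 50. Arrdc4, a relative of Txnip, had a ratio of 62.1 with a counting interval of 16.6 to 523, Selenow changed by 1.98 (SE 0.29) and glutathione reductase, Gsr, by −1.72 (SE 0.23). Iron, haem and polyamine genes had 6 of 19 higher and 3 lower. The ferritin light chain gene Ftl1, which has near-identical copies, had 11.8, 4.29 and 4.22 against 48.4, 36.8 and 58.8 CPM (2.64, SE 0.39), and Ireb2, which controls ferritin mRNAs, 139.5, 107 and 138 against 58.5, 38.5 and 41.7 CPM (−1.38, SE 0.21).

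Metabolic and cell death lists were more mixed. Nucleotide synthesis had 8 of 24 tested called lower and 2 higher (median −0.19). Impdh2, the enzyme that commits purines to guanine nucleotides, had 132, 126 and 115 CPM in control and 35.5, 25.1 and 30.3 CPM in HF libraries (−1.98, SE 0.21). The pseudogene Impdh2-ps held 401, 228 and 105 against 125, 34 and 24 footprint counts (−1.31), so the split of reads with Impdh2 is uncertain. Cad of pyrimidine synthesis changed by −1.01 and thymidine kinase Tk1 by −1.25. The tricarboxylic acid cycle had 4 of 21 lower and 3 higher, and mitochondrial import 5 lower and 6 higher of 21. In the BCL2 and cell death list 6 of 23 were higher and 4 lower. Pmaip1, the BH3-only protein NOXA, had 4.87, 1.23 and 4.22 against 33.8, 15.1 and 53.1 CPM (3.25, SE 0.54), the receptor Tnfrsf12a 203, 215 and 225 against 881, 1122 and 1204 CPM (2.32, SE 0.11), and the caspases Casp2 and Casp6 changed by 1.73 and −2.52. Protein phosphatase genes named Ppp had 12 of 45 lower and 6 higher, among the latter Ppp1r15a, the stress-induced eIF2 phosphatase subunit (11.4, 22.1 and 14.1 against 208, 212 and 303 CPM; 3.92, SE 0.23). Families with no clear lean included the solute carriers, with 26 of 129 higher and 26 lower (17 higher without control library 1 and 15 with a minimum count of 50), and the Tmem genes, with 14 of 95 higher and 8 lower. The Tmem counts were 9 higher without HF library 1 and 14 lower with upper-quartile factors.

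Part of these changes was not matched by total RNA. Over the 7926 genes tested in both assays, footprint and RNA changes had a Pearson r of 0.71 and a Spearman coefficient of 0.66, across genes that are not independent replicates. The footprint change exceeded the RNA change in 486 genes (6.13%) and fell below it in 652 (8.23%), by the interaction of assay and treatment in edgeR. Of the 3500 genes called in footprints and tested here, some moved the same way in RNA and some did not. Of those called higher in footprints, 1159 were also called higher in RNA, 617 were not called there and 45 were called lower. For genes called lower in footprints the counts were 981 lower, 622 not called and 76 higher. A gene not called in RNA need not differ between the assays. By the interaction, 282 of the genes called higher in footprints lay above their RNA change, 56 below it, and 1483 were not called. Of the genes called lower, 356 lay below their RNA change, 38 above it, and 1285 were not called.

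Among the genes whose footprints outran their RNA, several rose in footprints while their RNA fell. Taf1d, a subunit of the initiation factor of RNA polymerase I, had 32.4, 30.0 and 45.0 footprint CPM in control and 177, 85.3 and 121 in HF libraries, and 159, 163 and 189 against 117, 116 and 112 RNA CPM. Its footprint change was 1.96, its RNA change −0.57, and their difference 2.53 (SE 0.30, adjusted p = 7.3e-09). Fth1, the ferritin heavy chain, showed the same pattern, with 187, 215 and 167 against 521, 549 and 531 footprint CPM, and 1808, 1543 and 1720 against 921, 958 and 896 RNA CPM (difference 2.34, SE 0.13, adjusted p = 2.3e-19). Mrpl12, a mitochondrial ribosomal protein, had 65.3, 67.4 and 68.9 against 205, 167 and 171 footprint CPM, and 222, 178 and 195 against 128, 94.8 and 115 RNA CPM (difference 2.27, SE 0.24). No library overlapped between groups for these 3 genes in either assay, which for footprints was a condition of their choice. Rplp1, a stalk protein of the large ribosomal subunit, differed by 2.45 (SE 0.28), with footprints at 1.84 and RNA at −0.61, but it has near-identical copies. Rhog, a small GTPase, differed by 2.48 (SE 0.56), but its RNA groups overlapped, with 53.6, 43.9 and 25.9 against 13.7, 15.2 and 27.4 CPM. Rflnb, a filamin-binding protein, differed by 3.52 (SE 0.65). The footprint call of Rflnb was lost with DESeq2 and without control library 1 or 3 or HF library 2 or 3.

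Atf4 and Dusp2 rose in both assays and more in footprints. Atf4 had 178, 182 and 187 footprint CPM in control and 1170, 1194 and 1194 in HF libraries, and 789, 859 and 743 against 1115, 1025 and 1113 RNA CPM (difference 2.26, SE 0.13, adjusted p = 2.3e-19). The RNA of Dusp2 had 12.6, 14.6 and 13.6 against 86.5, 59.4 and 75.3 CPM, and its footprint change exceeded that by 2.40 (SE 0.49). Eprs, whose product halofuginone inhibits, had 466, 459 and 467 against 828, 771 and 664 footprint CPM (0.71, SE 0.10), and an RNA change of 1.29, with a difference of −0.58 (SE 0.17, adjusted p = 0.012).

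Other genes lost footprints while their RNA held or rose. Sbf1 had 338, 352 and 292 RNA CPM in control and 344, 334 and 314 in HF libraries, groups that overlapped, and its difference of −3.11 (SE 0.27, adjusted p = 6e-12) was nearly the whole footprint change. Rock2, a kinase downstream of RhoA, had 165, 148 and 159 against 51.2, 40.2 and 28.4 footprint CPM, and 55.8, 51.3 and 58.6 against 93.4, 113 and 135 RNA CPM, so that footprints fell where RNA rose (difference −2.93, SE 0.30). Arfgef1, an exchange factor of Arf GTPases, did likewise, with 112, 93.8 and 98.4 against 47.3, 63.6 and 30.3 footprint CPM, and 39.97, 80.5 and 46.3 against 96.8, 149 and 155 RNA CPM (difference −2.43, SE 0.34). For both genes the groups were separate in each assay, which for footprints was a condition of their choice. Hipk3, a nuclear kinase, differed by −2.54 (SE 0.33) and Fem1b, a substrate receptor of a cullin ligase, by −2.35 (SE 0.28). Mfhas1, a leucine-rich repeat protein, differed by −3.12 (SE 0.62), with its footprint call lost without HF library 1. Cwf19l2, a gene related to a yeast splicing factor, was higher in both assays but less so in footprints, where its call was lost without HF library 1 (difference −2.40, SE 0.79), and that difference lost its call with the replicate block and without RNA control library 1 or 2, RNA HF library 2 or 3, control library 2 or HF library 2.

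**Figure D4:**
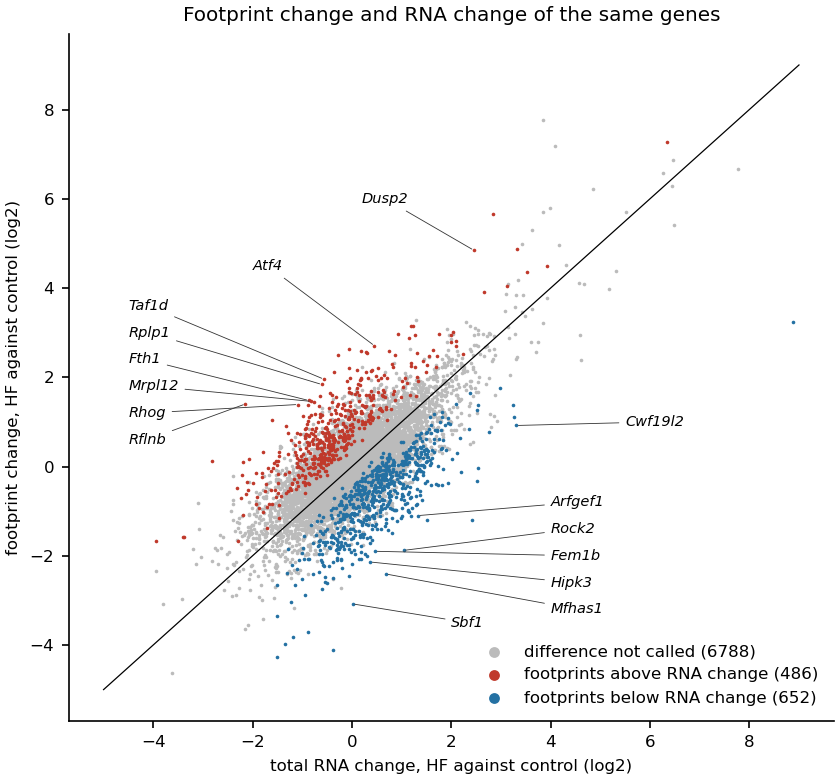
Footprint log2 change (vertical) against total RNA log2 change (horizontal), HF against control, for 7926 genes tested in both assays, with the diagonal of equal change. Red points are the 486 genes whose footprint change lay above the RNA change, blue points the 652 below it, and labelled genes are those described in the text.

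In some lists the called differences lay almost all on 1 side of the RNA change, while most members were not called, beside 6.13% above and 8.23% below among all genes. Ube2 genes had 9 of 27 members above it and 0 below, with a median of −0.14 in RNA against 0.45 in footprints, and between 4 and 7 members above when 1 library of either assay was left out. The lowest of these counts was without RNA control library 1. Antioxidant, thioredoxin and selenoprotein genes had 10 of 31 above and 0 below (6 above without RNA control library 3, RNA HF library 3 or HF library 3, and 1 below without HF library 2), with medians of −0.45 in RNA and −0.04 in footprints. Chromatin genes had 15 of 47 below and 1 above, with medians of 0.40 in RNA and −0.26 in footprints, and growth factor receptors and adaptors 10 of 35 below and 2 above. Usp7, a deubiquitinase of p53 regulators, is a case with 202, 201 and 204 against 101, 109 and 68.3 footprint CPM, and 197, 189 and 194 against 378, 412 and 372 RNA CPM (difference −2.10, SE 0.20), and deubiquitinases as a list had 9 of 31 below and 1 above. The single chromatin gene and the single deubiquitinase above the RNA change lost that call in most fits without a library. Annexins had 5 of 8 below and 0 above. The termination factor Gspt1 fell in footprints with RNA at −0.03 (difference −1.11, SE 0.17).

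The difference between assays followed the span of the gene, introns included, although footprint changes alone did not. With genes in 5 equal bins, from the bin with the shortest span (median 4.84 kb) to the bin with the longest (median 113 kb), the median footprint change went from −0.01 to −0.04. The median RNA change went from −0.32 to 0.22, and the median difference from 0.27 to −0.25. Footprints above the RNA change were called in 12.9% of the shortest and 2.68% of the longest genes, and footprints below it in 2.13% and 16.4%. What moves with gene span besides these values was not tested. The values describe genes, which are not independent replicates.

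**Figure D5:**
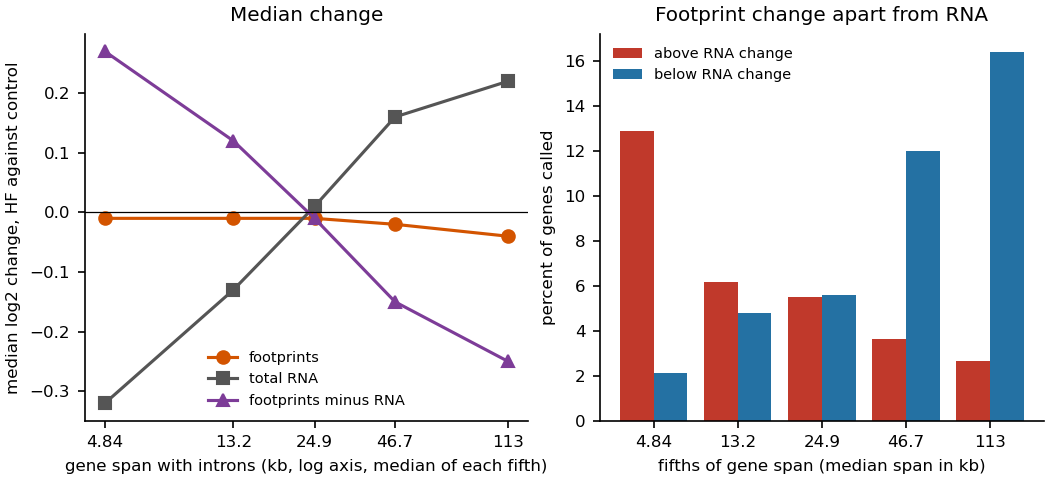
Left, the median log2 change of footprints, of total RNA and of their difference in 5 equal bins of gene span, plotted at the median span of each bin on a log axis in kb. Right, the percent of genes in each bin whose footprint change was called above (red) or below (blue) the RNA change, from 12.9% and 2.13% in the shortest to 2.68% and 16.4% in the longest genes.

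Calls were spread over all chromosomes. Chromosome 13 had the highest share called higher (34.1% of 346 tested genes), beside 22.4% of all tested genes. It carries a large histone cluster, whose part in this share was not tested. Chromosome 19 had the highest share called lower (31.8% of 308), beside 20.9% of all tested genes.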

How the data were processed

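The authors deposited a table of read counts per gene for each library. Per the labels' protocols, cells were lysed for Trizol extraction of total RNA, or their lysate was digested with RNase I, the monosome fraction was taken from a sucrose gradient, and a gel served to select footprints by size before ribosomal RNA was depleted. The submitters' processing notes name the aligners Bowtie and HISAT2, the counter HTSeq and the genome GRCm38. Not given in the sources used here are the counted feature, the strand setting and the treatment of reads with several matches, so reads from overlapping or antisense genes cannot be told apart. In the footprint libraries, genes with 2 counts outnumbered genes with 1 count (1348 to 1474 against 340 to 717). The same held in the RNA libraries (1430 to 1557 against 332 to 427). An alternative with halved counts was run for both comparisons. For the interaction it gave 552 genes above and 656 below the RNA change, beside 486 and 652 in the main fit.

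The tables held 55536 gene identifiers, of which 55450 matched a symbol and 21409 are protein-coding in the RefSeq gene table of GRCm38.p6, and 0 entries named no gene. Footprint changes were tested in edgeR 4.0.16 (R 4.3.3) by the quasi-likelihood test on the counts of 6 libraries, with TMM factors (0.946 to 1.03), filterByExpr with a minimum count of 10, and Benjamini-Hochberg adjustment over all tested genes at 0.05. The difference between footprint and RNA change was the interaction of assay and treatment over 12 libraries. CPM were computed per library over protein-coding genes with TMM factors and are not corrected for length. Intervals on ratios of low counts are exact at 95% and cover counting error only, and reads are not independent molecules. On simulated counts with known changes, 74.0% of 2-fold and 100% of 4-fold changes were recovered for footprints. There were 9 false calls, with 8366 genes tested, the changed ones included. For the interaction 23.2% and 94.0% were recovered, with 4 false calls and 7896 genes tested. The simulation gave every gene the same relative spread and changed only a limited set of well-counted genes. These rates may therefore not hold for the real libraries.

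Named genes were the 10 highest in control, the 12 largest called changes in each direction with an average log2 CPM of at least 5 and no overlap between groups, the 8 largest gains and the 8 largest losses in CPM, up to 4 called members with the largest change per list, the 6 largest called interactions in each direction under the same limits, the 6 largest differences among genes called in opposite directions in both assays, and Atf4, Ddit3 and Eprs. Some named genes and lists are not reported here. The members and lists were chosen with earlier results of these data known. Alternatives were other scaling factors, DESeq2 1.42.0, other filters, halved counts, a replicate block, all gene types and each library left out. No protein sequences were at hand, so the planned comparison by amino acid share was not run.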

Additional observations from a re-analysis of the deposited data

Results flagged for a closer look

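By the interaction test of edgeR, the footprint change lay above the RNA change in 486 genes and below it in 652. The 15 genes given here were picked from these for the size of that difference. The difference on the log2 scale was 2.53 for Taf1d, 2.45 for Rplp1, 2.40 for Dusp2, 2.34 for Fth1, 2.27 for Mrpl12 and 2.26 for Atf4. It was −3.11 for Sbf1, −2.93 for Rock2, −2.54 for Hipk3, −2.43 for Arfgef1, −2.40 for Cwf19l2 and −2.35 for Fem1b. Among genes called in opposite directions in footprints and RNA, it was 3.52 for Rflnb, 2.48 for Rhog and −3.12 for Mfhas1. The Cwf19l2 value rests on RNA controls with 0, 0 and 5.45 CPM, and the RNA groups of Rhog overlapped.

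In a fit over all gene types, 643 genes of other or no type in the RefSeq gene table were tested for footprints. Of these, 98 (15.2%) were called higher and 103 lower. The 643 genes include 455 pseudogenes and 48 long non-coding RNAs. Those without a type include mitochondrial genes that encode proteins, such as mt-Nd5, mt-Co1 and mt-Nd6, which the main fit left out. Host genes of small nucleolar RNAs, singled out after their values were seen, had 7 of 10 tested called higher and 1 lower. Snhg17 had 26, 17 and 18 counts in control and 542, 163 and 141 counts in HF libraries, with a log2 change of 4.43 (edgeR adjusted p = 2.6e-13). Snhg1 had 278, 196 and 62 counts in control and 1348, 356 and 400 counts in HF libraries (2.70). Gas5 changed by 2.29 and Zfas1 by 1.89, while Snhg3, the lower member, changed by −1.04.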

How the results depend on the processing

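With a minimum count of 50, which leaves 4654 genes to test, calls of at least 2-fold numbered 564 higher and 447 lower, fewer by construction. Other settings kept the genome-wide counts within 1.5 times of the main ones, among them DESeq2 (1635 higher and 1501 lower), halved counts (1905 and 1782) and upper-quartile factors (1656 and 2043), which shifted the median to −0.10. The balance of calls did turn: genes called higher made up 51.8% of calls, but 44.8% with upper-quartile factors (871 higher and 1029 lower at 2-fold or more) and 49.5% without control library 3 (1646 and 1680). Leaving out 1 library gave 1487 to 1862 genes higher and 1404 to 1727 lower, 897 to 1034 and 746 to 948 at 2-fold or more, and, beyond RNA, 357 to 448 above and 507 to 639 below. Same-numbered libraries correlated by 0.07, 0.02 and 0.01 in their deviations from the group means, so the numbers were not taken as pairs, and with the replicate block 1818 genes were higher and 1729 lower. Where a setting still tested a named gene, the call was kept 3897 times and lost 113 times. Cases where the filter of a setting dropped the gene were not counted. The member counts of lists stayed within 1.5 times 1724 times and moved 152 times, named in the text for the lists it describes. Depth limits the rest: HF footprint libraries 2 and 3 and control footprint library 3 hold 641328, 562794 and 724609 counts. RNA control library 2 holds 718096 counts. Protein-coding genes held 73.93% to 76.24% of counts in RNA control and 79.73% to 81.83% in RNA HF libraries. The alternatives for the proline share were not run, since no protein sequences were at hand.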

Other observations

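Some lists have not been described, and their counts stand beside 22.4% called higher and 20.9% called lower among all tested genes. Among genes of ribosome rescue and quality control, 4 of 20 tested (20%) were called higher and 4 (20%) lower in HF footprints. These shares are near those of all tested genes. Vcp, an ATPase that extracts ubiquitylated proteins, had 218, 194 and 181 CPM in control and 72.6, 73.6 and 45.5 CPM in HF libraries (−1.59, SE 0.18). The pseudogene Vcp-rs held 685, 479 and 191 against 173, 62 and 35 footprint counts (−1.62), so the split of reads with Vcp is uncertain. Edf1, a sensor of collided ribosomes, had 25.6, 31.3 and 22.5 against 51.2, 73.6 and 91.0 CPM (1.36, SE 0.27), and Gigyf2, which represses initiation on such messages, changed by 0.84. The groups were separate for Vcp and Edf1. Map3k20, the kinase ZAK that binds stalled ribosomes, changed by 0.62 and lost its call without control library 2. The counts were 2 lower without control library 1 and 2 higher without control library 2.

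Nuclear pore and transport genes had 9 of 37 tested called higher (24.3%) and 5 lower (13.5%), with 3 lower without control library 1. Ranbp2, a large nucleoporin with SUMO ligase activity, had 191, 167 and 188 CPM in control and 496, 530.3 and 428 CPM in HF libraries (1.42, SE 0.12), while the actin exporter Xpo6 had 112, 109.7 and 157 against 25.3, 41.8 and 26.5 CPM (−2.05, SE 0.24). In mitochondria, Samm50, which inserts proteins into the outer membrane, changed by −1.12 (SE 0.15) and Timm22 of the inner membrane by 1.19 (SE 0.30). Among enzymes of the tricarboxylic acid cycle, Idh2 changed by −1.05 (SE 0.19), and Sdhb had 99.8, 106 and 115 against 137, 189 and 199 footprint CPM while its RNA had 194, 247 and 177 against 92.2, 97.4 and 123 CPM. Vesicle coat genes had 9 of 31 lower (29%) and 5 higher (16.1%), with 3 higher without control library 2 or 3. The largest change among them was that of clathrin light chain Cltb, at 1.61 (SE 0.29).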
